A study of Saccharomyces cerevisiae with 18 samples.

Results

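Aminoacyl-tRNA synthetases attach each amino acid to its own transfer RNA, so every protein made by a ribosome depends on them. Budding yeast translates in the cytosol and, for a few respiratory chain subunits coded by mitochondrial DNA, in the mitochondrion, and both compartments need charged tRNA. For most amino acids separate nuclear genes code for the enzyme of each compartment, while a few genes make both forms from alternative translation starts. Respiratory growth, as on ethanol, needs mitochondrial translation, whereas growth on glucose is largely fermentative. The genes described here are 32 genes taken by name from a list, 13 for mitochondrial enzymes and 19 for cytosolic or dual ones. They were found among the 5656 genes that had a probe set matching 1 gene only, and each of the 32 had 1 such probe set. All 32 passed the filter on low values, as did 5545 of the 5656 genes.

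RNA was measured in Saccharomyces cerevisiae of the W303-1A background on 18 Affymetrix yeast S98 arrays, 3 from independent cultures in each of 6 groups. The groups were FAR1 overexpression in ethanol and in glucose, far1 deletion in ethanol and in glucose, and wild type in ethanol and in glucose, all in synthetic complete medium and in exponential growth. The overexpression strain carried the plasmid pTet-FAR1-15Myc, which drives Myc-tagged FAR1 from a Tet promoter, and the wild type is not labelled as carrying a plasmid. The deletion strain was far1::his3. All 6 groups shared the alleles can1-100 and ade2-1 and the markers ura3-1, trp1-1 and his3-11, carried a mutation in leu2, and were labelled MATa. The FAR1 product inhibits a cyclin-dependent kinase, and the study asked how its dosage alters transcription on either carbon source. Levels are given as normalized intensity, the deposited probe set intensity after quantile normalization between arrays, and changes as log2 differences with the standard error from limma. A change was called at a Benjamini-Hochberg adjusted p below 0.05 over the 5545 genes tested, and rose or fell is written only of called changes.

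Several arrays stood apart from their labels or groups. Deposited FAR1 intensity was 2554, 2722 and 3.3 in the overexpression ethanol arrays and 4.8, 5.3 and 2596 in the deletion ethanol arrays, against 29.3, 17.9 and 25.5 in wild type ethanol. Array 3 of each of the first groups therefore read opposite to its label, and ethanol results of both strains are also given without this pair. In glucose FAR1 read 1019.5, 966 and 557 in the overexpression strain and 4.9, 7.0 and 4.1 in the deletion strain, against 19.7, 27.3 and 22.8 in the wild type. Overexpression glucose arrays 1 and 3 had a low actin 5′ signal, with log2 ratios of the 3′ to the 5′ probe set of 8.06 and 8.87, against 0.32 to 1.04 on the 16 others. The deposited intensity of MATa-specific genes was low on all 18 arrays, with STE2 at 0.1 to 2.4 and BAR1 at 1.6 to 5.4, whereas the alpha-specific MF(ALPHA)1 and STE3 read 446 to 2399 and 38.4 to 136, opposite to the labelled mating type. The other 2 alpha-specific genes listed were low in ethanol, with MF(ALPHA)2 at 2.38 to 4.29 and SAG1 at 8.92 to 17.2 in normalized intensity, against 331 to 791 and 64.1 to 120.3 in glucose. The labels give all groups the his3 and trp1 markers, and the label of the deletion strain, far1::his3, also names his3 at far1. HIS3 and TRP1 were higher in both FAR1 strains than in the wild type on either carbon source, and passed in all 4 comparisons. Normalized HIS3 read 114 to 218 in the overexpression strain and 112 to 254 in the deletion strain, against 5.47 to 17.4 in the wild type. TRP1 read 191 to 473 in the overexpression strain and 178 to 669.7 in the deletion strain, against 10.1 to 32.7 in the wild type, and the part of these markers in the strain comparisons was not tested. Array medians ran from 8.5 to 23.8 in deposited intensity, and replicates of a group correlated at 0.946 to 0.979 across genes, which are not independent replicates.

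Cytosolic or dual genes were lower in ethanol than in glucose in all 3 strains, while mitochondrial genes were mostly higher in the deletion strain and the wild type and divided in the overexpression strain. Of the 19 genes, 19 fell in the overexpression strain, 16 in the deletion strain and 17 in the wild type, and 0 rose. Over all tested genes, 22.9%, 21.2% and 21% fell in the same comparisons. Of the 13 mitochondrial genes, 2 rose in ethanol in the overexpression strain, 8 in the deletion strain and 7 in the wild type, while 17.3%, 21.7% and 22.4% of all genes rose. The 2 rises in the overexpression strain were 15.4% of the 13 genes, near the share of all genes. Only 2 calls among the mitochondrial genes ran the other way: MSR1 fell in the overexpression strain and MSW1 in the wild type.

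The median log2 change of the cytosolic or dual genes was −0.94 in the overexpression strain, −0.67 in the deletion strain and −0.80 in the wild type. Their changes ran from −1.27 to −0.50, from −1.41 to −0.06 and from −1.57 to −0.23 in these strains, so all 19 were below 0 in each. The mitochondrial genes had medians of 0.01, 0.63 and 0.56, and 7, 11 and 12 of the 13 were above 0. The median over all tested genes was −0.09, −0.01 and 0.00. In bulk RNA from a culture, a lower share of cells with a transcript and less of it per cell cannot be told apart.

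Without array 3 of the 2 ethanol groups, 19 cytosolic or dual genes fell in the overexpression strain and 16 in the deletion strain, with medians of −0.88 and −0.74, while 22.1% and 18.4% of all genes fell. The mitochondrial genes then showed 2 rises in the overexpression strain and 5 in the deletion strain, with medians of 0.05 and 0.54 and 0 falls, while 16% and 19.8% of all genes rose. Without overexpression glucose arrays 1 and 3, which leaves 1 array assumed to vary like the other groups, 13 cytosolic or dual genes fell in the overexpression strain and 0 mitochondrial genes passed, with medians of −0.75 and 0.19, while 11.4% of all genes fell and 12.6% rose.

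The classes stayed apart on the deposited scale, while the numbers of calls depended on the scaling. On the deposited scale, with no scaling, the median of all genes was itself 0.27 higher in ethanol in the overexpression strain, 0.36 in the deletion strain and 0.66 in the wild type. Relative to that shift the mitochondrial medians were 0.13, 0.73 and 0.61, and the cytosolic or dual medians were −1.07, −0.91 and −0.95. On the same scale with the shift kept, each array gave a class median of log2 differences from the wild type glucose mean. For cytosolic or dual genes it was −0.49 to −0.12 in wild type ethanol, against −0.25 to 0.31 in wild type glucose. For mitochondrial genes it was 1.05 to 1.37, against −0.20 to 0.29. On that scale 3, 11 and 12 mitochondrial genes rose, and 10, 6 and 2 cytosolic or dual genes fell, while 20.1%, 26.7% and 42.8% of all genes rose and 6.08%, 6.78% and 3.14% fell. In the wild type on that scale ARC1, DPS1, FRS1 and MSW1 turned to values above 0, of 0.06, 0.14, 0.23 and 0.04, and 0 of these passed.

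The distance between the classes could be read within each array, as the median mitochondrial minus the median cytosolic log2 difference from the wild type glucose mean. It was 1.46, 1.23 and 1.09 in overexpression ethanol, against 0.25, 0.02 and 0.30 in overexpression glucose. In the deletion strain it was 1.29, 1.08 and 1.16 in ethanol, against −0.04, −0.08 and −0.12 in glucose. Wild type arrays gave 1.24, 1.32 and 1.28 in ethanol, against 0.10, 0.02 and 0.01 in glucose. The 9 ethanol arrays lay above the 9 glucose arrays with no overlap. On the deposited scale the distance was 1.28 to 1.74 on ethanol arrays and −0.27 to 0.37 on glucose arrays.

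**Figure D1:**
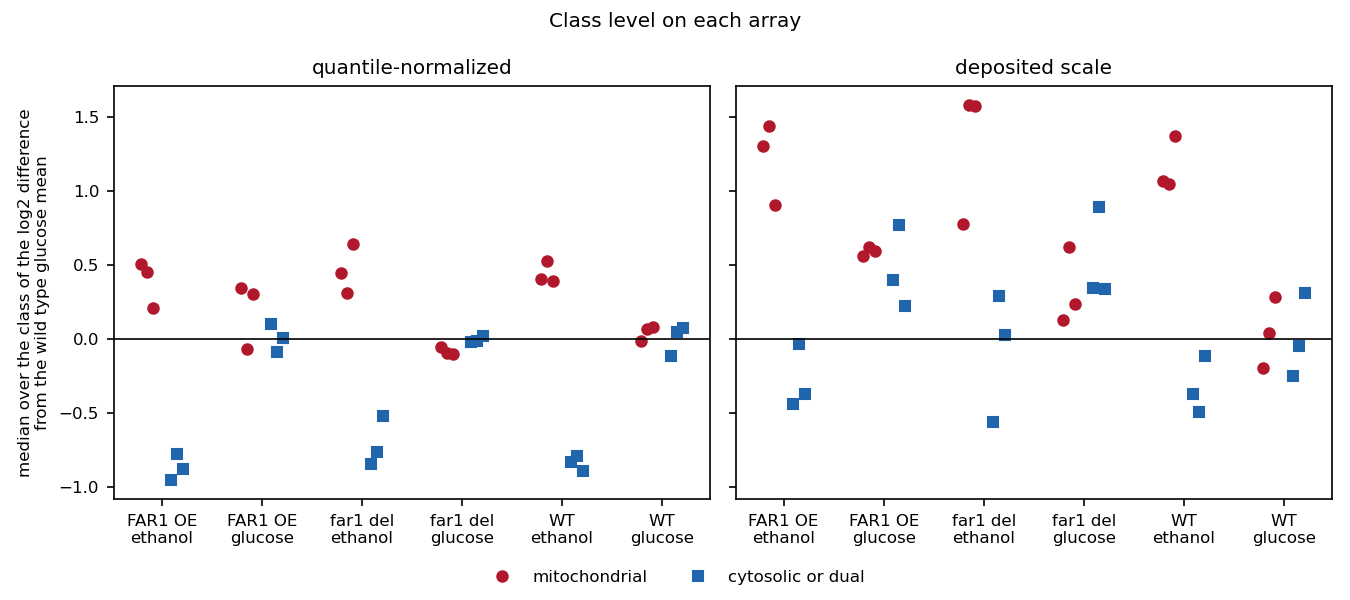
Median over each class of the log2 difference from the wild type glucose mean (vertical axis) on each of the 18 arrays, by group (horizontal axis), quantile-normalized on the left and on the deposited scale on the right. Circles are the 13 mitochondrial genes and squares the 19 cytosolic or dual genes, and on the left the mitochondrial median exceeds the cytosolic one by 1.08 to 1.46 on ethanol arrays and by −0.12 to 0.30 on glucose arrays.

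**Figure D2:**
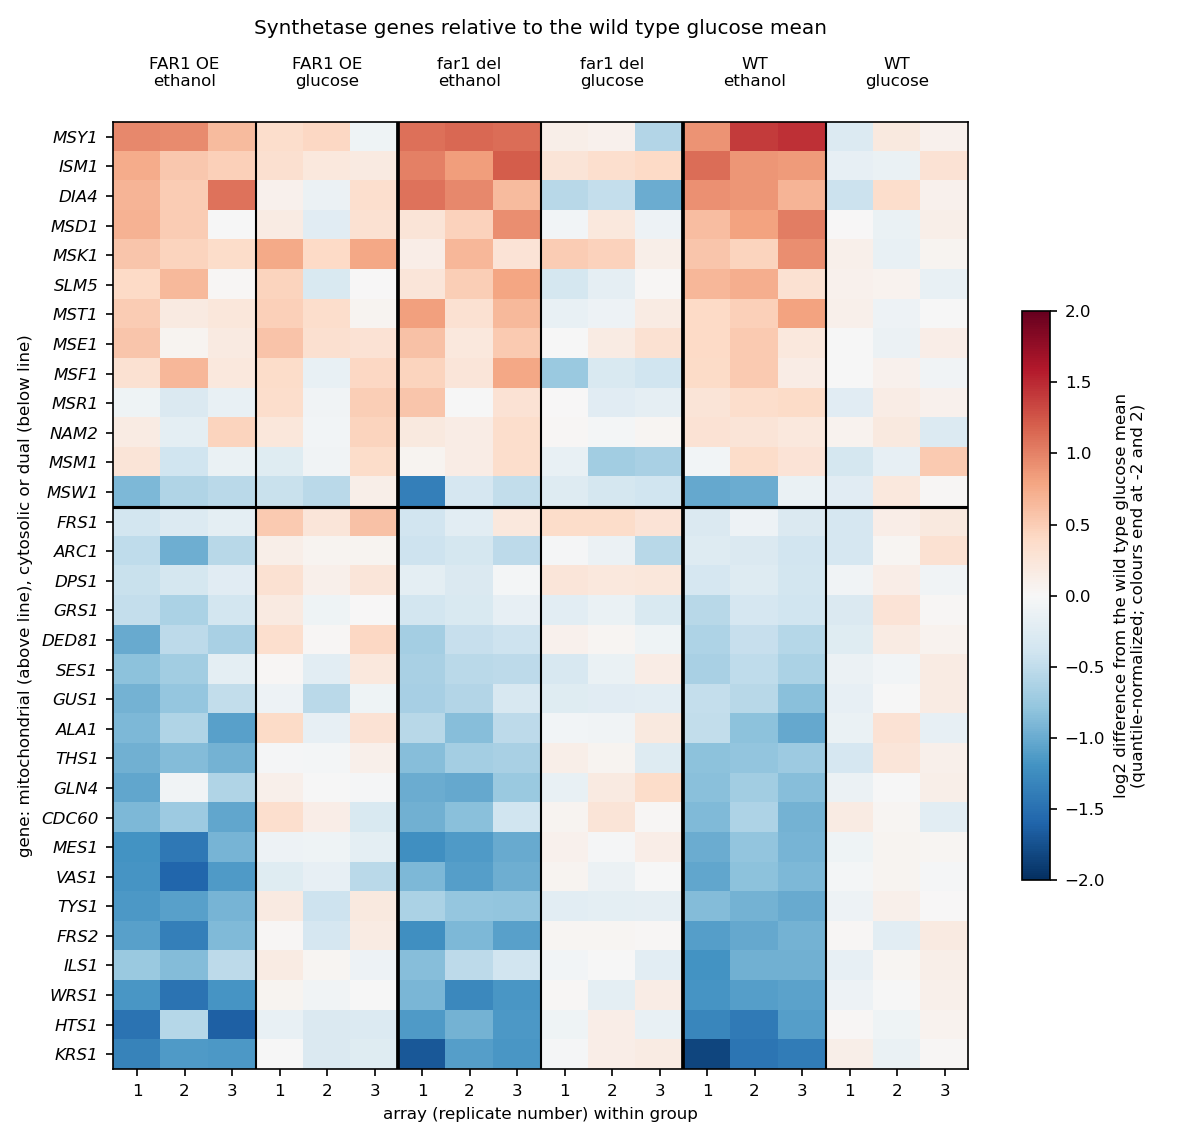
Log2 difference of each of the 32 genes (rows) from its wild type glucose mean on each of the 18 arrays (columns, 3 per group), in quantile-normalized values, with red higher and blue lower. The ethanol columns are mostly red above the black line, where the 13 mitochondrial genes are, and blue below it, with MSW1 blue in ethanol among the mitochondrial genes.

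Among the mitochondrial genes, MSY1 and DIA4 rose in ethanol in all 3 strains. MSY1 (YPL097W) codes for the mitochondrial tyrosyl-tRNA synthetase. MSY1 read 28.2, 27.7 and 22.3 in overexpression ethanol, against 18.3, 19.0 and 13.5 in overexpression glucose. In deletion ethanol MSY1 read 31.2, 32.2 and 31.5, against 15.6, 15.1 and 9.33 in deletion glucose. For MSY1 the wild type ethanol arrays gave 26.8, 38.4 and 39.9, against 11.7, 16.4 and 15.1 in wild type glucose. The ethanol arrays lay above the glucose arrays of their strain in each case, as they did for 3, 9 and 11 of the 13 mitochondrial genes in the overexpression strain, the deletion strain and the wild type, while 20.6%, 26.6% and 27.7% of all genes did. MSY1 had log2 changes of 0.62 ± 0.21 (adjusted p = 0.0269) in the overexpression strain, 1.26 ± 0.21 (adjusted p = 1.10e-04) in the deletion strain and 1.25 ± 0.21 (adjusted p = 1.11e-04) in the wild type. On the linear scale this was a ratio of 1.53, 2.39 and 2.38. The overexpression rise of MSY1 did not pass without the overexpression glucose arrays of low actin 5′ signal (0.43, adjusted p = 0.324), or without any one of overexpression glucose array 3 and ethanol arrays 1 and 2.

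DIA4 (YHR011W) codes for the probable mitochondrial seryl-tRNA synthetase. DIA4 read 19.1, 17.1 and 25.6 in overexpression ethanol, against 12.6, 10.9 and 15.1 in overexpression glucose. In deletion ethanol DIA4 read 25.7, 23.5 and 18.7, against 7.98, 8.44 and 5.75 in deletion glucose. For DIA4 the wild type ethanol arrays gave 22.7, 22.1 and 19.3, against 8.68, 15.2 and 12.6 in wild type glucose. The 3 deletion glucose readings lay below all other readings of the gene. The log2 change was 0.66 ± 0.22 (adjusted p = 0.0247) in the overexpression strain, 1.57 ± 0.22 (adjusted p = 1.63e-05) in the deletion strain and 0.82 ± 0.22 (adjusted p = 0.00569) in the wild type. Without the ethanol pair the overexpression change of DIA4 was 0.49 (adjusted p = 0.110) and no longer passed, nor did it without the overexpression glucose arrays of low actin 5′ signal (0.86, adjusted p = 0.0540) or without any one of overexpression glucose arrays 1 and 2 and ethanol array 3. Its change in the deletion strain exceeded that in the wild type by 0.75 ± 0.31, which did not pass (adjusted p = 0.571).

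ISM1 (YPL040C), the mitochondrial isoleucyl-tRNA synthetase gene, and MSF1 (YPR047W), the gene of the mitochondrial phenylalanyl enzyme, followed. ISM1 read 22.5, 19.7 and 18.7 in overexpression ethanol, against 16.8, 15.5 and 15.1 in overexpression glucose. In deletion ethanol ISM1 read 27.3, 24.0 and 31.3, against 16.0, 17.0 and 17.7 in deletion glucose. For ISM1 the wild type ethanol arrays gave 29.3, 24.8 and 24.3, against 11.9, 12.1 and 16.5 in wild type glucose. The ethanol arrays were all above the glucose arrays of their strain. ISM1 had log2 changes of 0.35 ± 0.16 (adjusted p = 0.0867) in the overexpression strain, 0.69 ± 0.16 (adjusted p = 0.00175) in the deletion strain and 0.95 ± 0.16 (adjusted p = 8.94e-05) in the wild type. MSF1 read 11.6, 15.0 and 10.8 in overexpression ethanol, against 12, 8.32 and 12.5 in overexpression glucose. In deletion ethanol MSF1 read 12.7, 11.1 and 16.2, against 5.35, 7.44 and 6.91 in deletion glucose. For MSF1 the wild type ethanol arrays gave 12.2, 13.5 and 10.3, against 9.22, 9.83 and 8.80 in wild type glucose. Its ethanol and glucose arrays overlapped in the overexpression strain only. The log2 change of MSF1 was 0.18 ± 0.21 (adjusted p = 0.517) in the overexpression strain, 0.97 ± 0.21 (adjusted p = 0.00105) in the deletion strain and 0.35 ± 0.21 (adjusted p = 0.193) in the wild type.

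MSR1 (YHR091C), the mitochondrial arginyl-tRNA synthetase gene, had 1 call, a fall in the overexpression strain. MSR1 read 46.4, 40.4 and 44.5 in overexpression ethanol, against 62.7, 46.9 and 69.6 in overexpression glucose. In deletion ethanol MSR1 read 72.7, 48.9 and 60.3, against 49.5, 42 and 43.6 in deletion glucose. For MSR1 the wild type ethanol arrays gave 59.2, 62.9 and 64.7, against 42, 54.4 and 52.4 in wild type glucose. The overexpression ethanol arrays were all below the overexpression glucose arrays, whereas the wild type ethanol arrays were all above those in wild type glucose. The log2 change was −0.43 ± 0.17 (adjusted p = 0.0480) in the overexpression strain, 0.41 ± 0.17 (adjusted p = 0.0547) in the deletion strain and 0.33 ± 0.17 (adjusted p = 0.115) in the wild type. The overexpression fall did not pass without the ethanol pair (−0.44, adjusted p = 0.0836) or without the 2 overexpression glucose arrays of low actin 5′ signal (−0.10, adjusted p = 0.787).

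MSW1 (YDR268W), the mitochondrial tryptophanyl-tRNA synthetase gene, was the only mitochondrial gene below 0 in all 3 strains. MSW1 read 7.36, 9.05 and 9.50 in overexpression ethanol, against 10.1, 9.50 and 15.2 in overexpression glucose. In deletion ethanol MSW1 read 5.16, 11.1 and 9.78, against 11.6, 10.9 and 10.5 in deletion glucose. For MSW1 the wild type ethanol arrays gave 6.65, 6.80 and 12.8, against 11.9, 16.2 and 14.2 in wild type glucose. The groups overlapped in each strain, and wild type ethanol array 3 lay among the glucose readings. The log2 change was −0.39 ± 0.28 (adjusted p = 0.293) in the overexpression strain, −0.40 ± 0.28 (adjusted p = 0.277) in the deletion strain and −0.72 ± 0.28 (adjusted p = 0.0471) in the wild type. The wild type fall did not pass without the ethanol pair (−0.72, adjusted p = 0.0548), and on the deposited scale the change was 0.04 (adjusted p = 0.941).

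No mitochondrial gene other than MSY1 and DIA4 passed in all 3 strains. MSD1, for the aspartyl enzyme, had log2 changes of 0.32 in the overexpression strain, 0.53 in the deletion strain and 0.82 in the wild type, and passed in the deletion strain and the wild type. SLM5 (asparaginyl) and MST1 (threonyl) also passed in those 2 strains. SLM5 had log2 changes of 0.31 in the overexpression strain, 0.68 in the deletion strain and 0.57 in the wild type. MST1 had log2 changes of 0.01 in the overexpression strain, 0.63 in the deletion strain and 0.56 in the wild type. MSM1, for the methionyl enzyme, passed in the deletion strain only, at 0.68, against −0.11 in the overexpression strain and 0.19 in the wild type. NAM2, whose leucyl enzyme also acts in the splicing of mitochondrial introns, and MSE1 (glutamyl) did not pass in any strain. NAM2 had log2 changes of −0.07 in the overexpression strain, 0.22 in the deletion strain and 0.25 in the wild type. Those of MSE1 were −0.13 in the overexpression strain, 0.29 in the deletion strain and 0.38 in the wild type. Without the ethanol pair, SLM5, MSD1 and MSM1 no longer passed in the deletion strain (adjusted p = 0.0662, 0.152 and 0.102), while MSD1 passed in the overexpression strain at 0.52 (adjusted p = 0.0357). Of 30 alternatives, 12 ended the call of MSD1 in the deletion strain, 5 that of MSM1, 3 that of SLM5 there, 6 that of SLM5 in the wild type and 2 that of MST1 in the wild type. SLM5 no longer passed in the wild type without any one of wild type glucose arrays 1 to 3 and ethanol arrays 1 and 2.

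**Figure D3:**
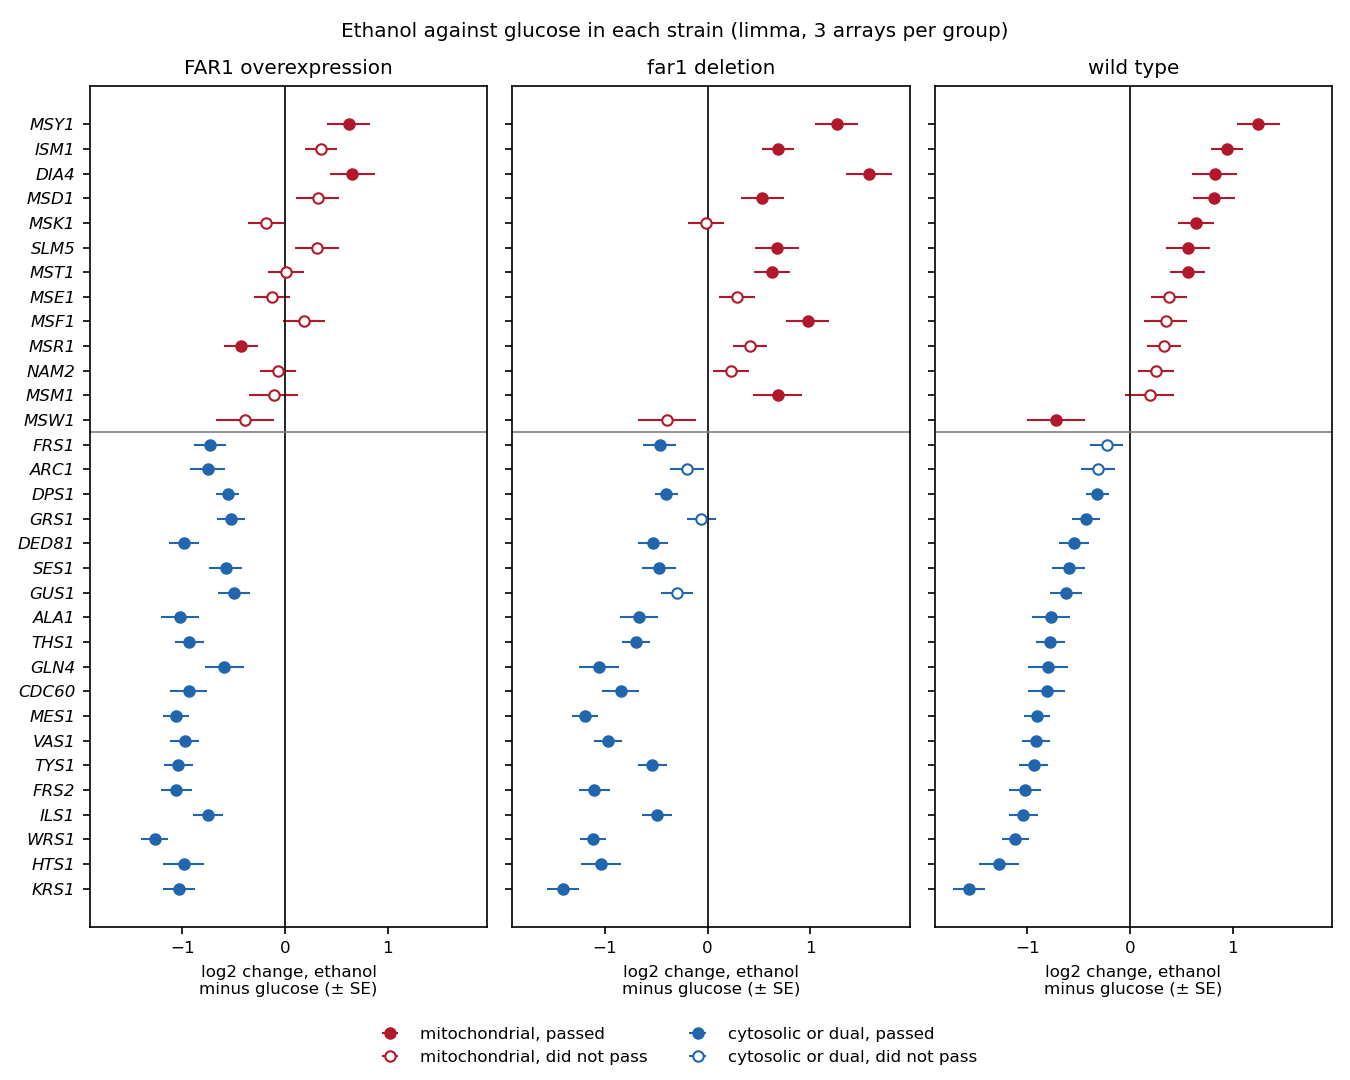
Log2 change, ethanol minus glucose, of each of the 32 genes (rows) in the 3 strains (panels), with bars of 1 SE from limma and 3 arrays per group; filled points passed at an adjusted p below 0.05. All 19 cytosolic or dual genes lie left of 0 in each panel, between −1.57 and −0.06, and the mitochondrial genes lie between −0.72 and 1.57.

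Among the cytosolic genes, KRS1 (YDR037W), the lysyl-tRNA synthetase gene, had the largest fall of the class in the deletion strain and the wild type. KRS1 read 236, 269.5 and 267 in overexpression ethanol, against 591, 486 and 503 in overexpression glucose. In deletion ethanol KRS1 read 184, 278 and 263, against 586, 651 and 664 in deletion glucose. For KRS1 the wild type ethanol arrays gave 166, 215 and 224, against 643, 538 and 604 in wild type glucose. Its highest ethanol reading was 278 and its lowest glucose reading 486. The log2 change was −1.03 ± 0.16 (adjusted p = 4.68e-05) in the overexpression strain, −1.41 ± 0.16 (adjusted p = 1.05e-06) in the deletion strain and −1.57 ± 0.16 (adjusted p = 2.73e-07) in the wild type. KRS1 was thus lower in ethanol by a factor of 2.04, 2.66 and 2.96 in these strains.

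WRS1 (YOL097C), the cytosolic tryptophanyl-tRNA synthetase gene, had the largest fall in the overexpression strain. WRS1 read 108, 86.6 and 107 in overexpression ethanol, against 252, 232 and 239.8 in overexpression glucose. In deletion ethanol WRS1 read 128, 98.5 and 108, against 245, 212 and 269 in deletion glucose. For WRS1 the wild type ethanol arrays gave 107, 113 and 115, against 227, 242 and 259 in wild type glucose. All 9 ethanol readings were below all 9 glucose readings. The log2 change was −1.27 ± 0.13 (adjusted p = 5.55e-07) in the overexpression strain, −1.12 ± 0.13 (adjusted p = 2.03e-06) in the deletion strain and −1.12 ± 0.13 (adjusted p = 1.95e-06) in the wild type. MES1 (YGR264C), for the methionyl enzyme, also fell in all 3 strains. MES1 read 101, 85.8 and 122 in overexpression ethanol, against 218, 219 and 203 in overexpression glucose. In deletion ethanol MES1 read 99.0, 106 and 115, against 248, 230.4 and 255 in deletion glucose. For MES1 the wild type ethanol arrays gave 117, 134 and 122, against 219, 242 and 239 in wild type glucose. The highest ethanol reading of MES1 lay below its lowest glucose reading. Its log2 change was −1.06 ± 0.13 (adjusted p = 2.96e-06) in the overexpression strain, −1.19 ± 0.13 (adjusted p = 5.85e-07) in the deletion strain and −0.91 ± 0.13 (adjusted p = 1.38e-05) in the wild type.

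FRS2 (YFL022C) and FRS1 code for the alpha and beta subunits of the cytosolic phenylalanyl-tRNA synthetase, and FRS2 fell in all 3 strains. FRS2 read 87.1, 71.5 and 100 in overexpression ethanol, against 188, 146 and 206 in overexpression glucose. In deletion ethanol FRS2 read 78.7, 99.1 and 86.7, against 189, 190.3 and 188 in deletion glucose. For FRS2 the wild type ethanol arrays gave 85.7, 91.1 and 95.4, against 188, 159 and 210.2 in wild type glucose. The ethanol arrays of FRS2 were all below its glucose arrays. The log2 change of FRS2 was −1.06 ± 0.15 (adjusted p = 2.81e-05) in the overexpression strain, −1.10 ± 0.15 (adjusted p = 1.47e-05) in the deletion strain and −1.02 ± 0.15 (adjusted p = 3.10e-05) in the wild type. FRS1 had log2 changes of −0.73 ± 0.16 (adjusted p = 0.00135) in the overexpression strain, −0.47 ± 0.16 (adjusted p = 0.0253) in the deletion strain and −0.23 ± 0.16 (adjusted p = 0.274) in the wild type, and did not pass in the wild type. The difference between the subunits was not tested.

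Of the 4 genes that make both a cytosolic and a mitochondrial enzyme, HTS1, VAS1 and ALA1 fell in all 3 strains and GRS1 in 2. HTS1 (YPR033C) codes for both histidyl-tRNA synthetases. HTS1 read 84.2, 157 and 75.8 in overexpression ethanol, against 212, 192 and 195 in overexpression glucose. In deletion ethanol HTS1 read 107, 122 and 106, against 221, 257 and 213 in deletion glucose. For HTS1 the wild type ethanol arrays gave 94.9, 87.6 and 109.7, against 238, 221 and 247 in wild type glucose. Overexpression ethanol array 2, at 157, stood apart from the 84.2 and 75.8 of the 2 others, and was still below the glucose arrays. The log2 change of HTS1 was −0.99 ± 0.20 (adjusted p = 5.76e-04) in the overexpression strain, −1.04 ± 0.20 (adjusted p = 3.29e-04) in the deletion strain and −1.27 ± 0.20 (adjusted p = 4.03e-05) in the wild type. VAS1 (YGR094W) codes for both valyl enzymes. VAS1 read 80.6, 60.8 and 83.2 in overexpression ethanol, against 154, 163 and 125 in overexpression glucose. In deletion ethanol VAS1 read 97.8, 85.3 and 92.7, against 190.3, 168 and 182 in deletion glucose. For VAS1 the wild type ethanol arrays gave 88.4, 103 and 98.1, against 177, 190.4 and 180.4 in wild type glucose. All ethanol readings of VAS1 were below all glucose readings. Its log2 change was −0.98 ± 0.14 (adjusted p = 1.96e-05) in the overexpression strain, −0.97 ± 0.14 (adjusted p = 1.78e-05) in the deletion strain and −0.92 ± 0.14 (adjusted p = 3.01e-05) in the wild type.

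ALA1 (YOR335C) and GRS1 (YBR121C) code for the alanyl and glycyl enzymes of both compartments. ALA1 read 99.3, 121 and 87.3 in overexpression ethanol, against 242, 164 and 226 in overexpression glucose. In deletion ethanol ALA1 read 126, 103 and 129, against 178, 176 and 212 in deletion glucose. For ALA1 the wild type ethanol arrays gave 132, 105 and 91.1, against 169, 226 and 165 in wild type glucose. The ethanol arrays of ALA1 were all below the glucose arrays of their strain. The log2 change of ALA1 was −1.03 ± 0.18 (adjusted p = 2.31e-04) in the overexpression strain, −0.67 ± 0.18 (adjusted p = 0.00686) in the deletion strain and −0.77 ± 0.18 (adjusted p = 0.00241) in the wild type. GRS1 read 250.4, 223 and 269.5 in overexpression ethanol, against 395, 326 and 349 in overexpression glucose. In deletion ethanol GRS1 read 270.5, 282 and 309.9, against 301, 316 and 281 in deletion glucose. For GRS1 the wild type ethanol arrays gave 237, 274 and 264, against 283, 419 and 354 in wild type glucose. Ethanol and glucose arrays of GRS1 overlapped in the deletion strain only. Its log2 change was −0.53 ± 0.14 (adjusted p = 0.00546) in the overexpression strain, −0.06 ± 0.14 (adjusted p = 0.764) in the deletion strain and −0.43 ± 0.14 (adjusted p = 0.0181) in the wild type, so the deletion change did not pass. One probe set per gene measures the transcripts of both forms together.

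ARC1 codes for no synthetase but for a cofactor that binds the methionyl and glutamyl enzymes in the cytosol, MES1 and GUS1. It had log2 changes of −0.75 ± 0.17 (adjusted p = 0.00156) in the overexpression strain, −0.20 ± 0.17 (adjusted p = 0.362) in the deletion strain and −0.31 ± 0.17 (adjusted p = 0.146) in the wild type, and passed only in the overexpression strain. Its partner gene GUS1 had log2 changes of −0.50 ± 0.16 (adjusted p = 0.0156) in the overexpression strain, −0.30 ± 0.16 (adjusted p = 0.133) in the deletion strain and −0.62 ± 0.16 (adjusted p = 0.00348) in the wild type. The other cytosolic genes passed in all 3 strains. These were the genes for the leucyl (CDC60), asparaginyl (DED81), aspartyl (DPS1), glutaminyl (GLN4), isoleucyl (ILS1), seryl (SES1), threonyl (THS1) and tyrosyl (TYS1) enzymes, with changes of −1.04 to −0.56 in the overexpression strain, −1.06 to −0.40 in the deletion strain and −1.04 to −0.32 in the wild type. Leaving out a single array ended calls of GLN4, GUS1 and SES1 in the overexpression strain, of FRS1, ILS1 and SES1 in the deletion strain and of DPS1 and GRS1 in the wild type. Over the 19 genes, the ethanol arrays lay below the glucose arrays with no overlap in 17 genes of each strain, against 29.4%, 26% and 27.2% of all genes in the overexpression strain, the deletion strain and the wild type.

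For 12 amino acids the list holds a gene for each compartment, which allowed the 2 changes to be set side by side. The mitochondrial change minus the cytosolic change was above 0 in 12 of 12 pairs in each strain, with medians of 0.95 in the overexpression strain, 1.27 in the deletion strain and 1.24 in the wild type. The log2 ratio of the 2 genes was higher on ethanol than on glucose arrays with no overlap in 10, 11 and 11 pairs. The ratios overlapped for NAM2 and CDC60 and for MSE1 and GUS1 in the overexpression strain. Those of MSW1 and WRS1 overlapped in the deletion strain and the wild type. Leaving out 1 array brought the glutamate difference to 0.12 in the overexpression strain and the tryptophan difference to 0.13 in the wild type. Without the ethanol pair the medians were 1.13 in the overexpression strain and 1.27 in the deletion strain, and without the overexpression glucose arrays of low actin 5′ signal the overexpression median was 1.08, with 12 of 12 pairs above 0 in each case. On the deposited scale the medians were 1.21, 1.74 and 1.48 with 12 of 12 above 0. A shift equal for all genes of an array cancels in the difference. A shift that depends on intensity does not cancel, and its part was not tested. Mean normalized intensity over all arrays was 10.5 to 53.5 for the 13 mitochondrial genes and 42.8 to 506.5 for the 19 cytosolic or dual ones. The difference of changes does not compare the levels of the 2 genes.

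In the wild type the difference was largest for lysine, at 2.21 between MSK1 and KRS1, and smallest for tryptophan, at 0.40 between MSW1 and WRS1. MSK1 (YNL073W) codes for the mitochondrial lysyl enzyme, which is also known for its part in the import of a cytosolic lysine tRNA into mitochondria. MSK1 read 27.5, 25.6 and 24.1 in overexpression ethanol, against 31.5, 24.7 and 32.2 in overexpression glucose. In deletion ethanol MSK1 read 20.4, 29.6 and 22.5, against 26.7, 25.9 and 20.3 in deletion glucose. For MSK1 the wild type ethanol arrays gave 27.6, 25.5 and 35.7, against 20, 16.7 and 19.3 in wild type glucose. The wild type ethanol arrays lay above those in wild type glucose, while the groups overlapped in the deletion and overexpression strains. The log2 change of MSK1 was −0.19 ± 0.18 (adjusted p = 0.431) in the overexpression strain, −0.01 ± 0.18 (adjusted p = 0.959) in the deletion strain and 0.64 ± 0.18 (adjusted p = 0.00651) in the wild type. The lysine difference was 0.84 in the overexpression strain and 1.40 in the deletion strain. The largest difference was 1.66 for tyrosine (MSY1 and TYS1) in the overexpression strain and 2.08 for phenylalanine (MSF1 and FRS2) in the deletion strain. The smallest was that for glutamate (MSE1 and GUS1) in both, at 0.37 in the overexpression strain and 0.58 in the deletion strain.

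**Figure D4:**
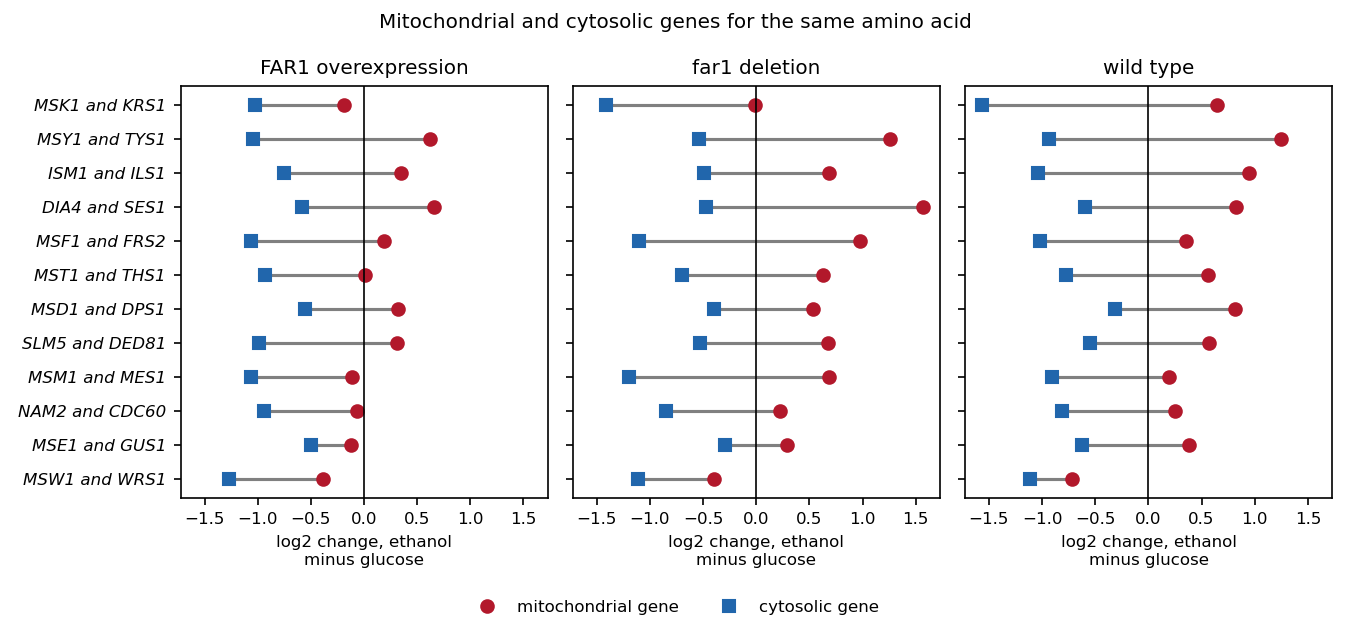
Log2 change, ethanol minus glucose, of the mitochondrial gene (circles) and the cytosolic gene (squares) for the same amino acid, in 12 pairs (rows) and 3 strains (panels), ordered by the wild type difference. The circle lies right of the square in every pair and panel, by 0.37 to 2.21, and no errors are drawn.

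FAR1 dosage was set against the wild type within each carbon source. In glucose the overexpression strain had 1 called synthetase gene, MSK1, which rose by 0.64 ± 0.18 (adjusted p = 0.0335); 5.3% of all genes rose and 1.97% fell in that comparison. MSK1 read 31.5, 24.7 and 32.2 in overexpression glucose, against 20, 16.7 and 19.3 in wild type glucose, with no overlap. The higher overexpression readings were those of arrays 1 and 3, the arrays of low actin 5′ signal, and without them the change was 0.40 (adjusted p = 0.673). The call was also lost without either of wild type glucose arrays 1 and 2. The median over the mitochondrial genes was 0.21, with 12 of 13 above 0, and without those arrays it was −0.07 with 5 above 0. The cytosolic or dual genes had a median of 0.01 and 0 calls. The median over all genes was 0.07, with 3297 of 5545 above 0.

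In glucose the deletion strain had 0 called synthetase genes against the wild type, while 1.23% of all genes rose and 0.361% fell. At an unadjusted p below 0.05 limma gave 2 mitochondrial and 0 cytosolic or dual genes, and 14% of all genes. The class medians were −0.13 and −0.01, and the 95% intervals of the 32 changes ran from −1.14 to 0.74. The largest of them was DIA4 at −0.67 ± 0.22 (adjusted p = 0.169), with readings of 7.98, 8.44 and 5.75 in deletion glucose, against 8.68, 15.2 and 12.6 in wild type glucose.

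In ethanol 0 synthetase genes passed in either strain. Overexpression minus wild type gave medians of −0.21 for the mitochondrial genes, with 11 of 13 below 0, and −0.09 for the cytosolic or dual genes, and 95% intervals from −0.86 to 0.69. Over all 5545 genes, 3017 were below 0. At an unadjusted p below 0.05 limma gave 2 and 5 genes of the classes and 10.9% of all genes, and at the adjusted threshold 0.234% of all genes rose and 0.162% fell. Deletion minus wild type gave medians of −0.01 and 0.08, with intervals from −0.70 to 0.75, and 0 and 1 genes and 6.83% of all genes at an unadjusted p below 0.05, while 0.0721% of all genes rose at the adjusted one. Without the ethanol pair 0 synthetase genes passed at the adjusted threshold in either strain. The overexpression medians were then −0.22 and −0.14 and the deletion medians −0.08 and 0.00. Of all genes 1.07% rose and 0.939% fell in the overexpression strain, and the shares in the deletion strain are not given here. The BioDn hybridization control had a 5′ to 3′ ratio of 0.369 to 0.575 on 11 of the 12 arrays of the FAR1 strains and of 0.169 to 0.231 on the other one, deletion glucose array 1, and on all 6 arrays of the wild type, and its part in the strain comparisons was not tested.

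Whether the carbon source effect itself differed between strains was tested as a difference of differences. For the overexpression strain 0 synthetase genes passed, while 0.018% of all genes passed with a difference above 0 and 0.162% with a difference below 0. A difference below 0 means a lower ethanol minus glucose change than in the wild type, as with a steeper fall. The mitochondrial median of this difference was −0.50 with 12 of 13 genes below 0, the cytosolic or dual median −0.10, and the median of all genes −0.10. Of all 5545 genes, 3389 were below 0. The largest mitochondrial differences were MSK1 at −0.83 ± 0.25 (adjusted p = 0.167) and MSR1 at −0.76 ± 0.24 (adjusted p = 0.177). At an unadjusted p below 0.05 limma gave 5 mitochondrial and 2 cytosolic or dual genes, and 13.7% of all genes. Without the overexpression glucose arrays of low actin 5′ signal the mitochondrial median was −0.22 with 9 genes below 0, and without the ethanol pair it was −0.47. For the deletion strain 0 synthetase genes and 0% of all genes passed, with medians of 0.07 and 0.08 and 3 and 1 genes and 8.4% of all genes at an unadjusted p below 0.05. These strain comparisons share the wild type arrays. The different numbers of mitochondrial rises, 2, 8 and 7, were thus not shown to be a difference between strains.

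Genes next to the synthetases in the path of tRNA were described from lists. Their calls were not checked without the ethanol pair, without the arrays of low actin 5′ signal or under the other alternatives. Among all tested genes 17.3%, 21.7% and 22.4% rose in ethanol in the overexpression strain, the deletion strain and the wild type, and 22.9%, 21.2% and 21% fell. Of 9 further synthetase genes and enzymes of mitochondrial tRNA charging, 3 fell in each strain, and 2 rose in the overexpression strain, 3 in the deletion strain and 4 in the wild type. The 2 rises in the overexpression strain were near the share of all genes. The 3 that fell were YHR020W (prolyl), CRS1 (cysteinyl) and YDR341C (arginyl). YHR020W had log2 changes of −0.88 in the overexpression strain, −0.86 in the deletion strain and −1.08 in the wild type, and CRS1 of −0.69 in the overexpression strain, −0.79 in the deletion strain and −1.02 in the wild type. YDR341C had changes of −0.61 in the overexpression strain, −0.55 in the deletion strain and −0.71 in the wild type. AIM10, a likely mitochondrial prolyl-tRNA synthetase, rose in all 3, by 0.88 in the overexpression strain, 0.87 in the deletion strain and 0.85 in the wild type. In the overexpression strain AIM10 read 30.6, 35.1 and 36.1 in ethanol, against 18.9, 9.60 and 32.9 in glucose, so these groups overlapped. GTF1, a subunit of the mitochondrial enzyme that makes glutaminyl-tRNA by amidation, also rose in all 3 strains. HER2 of the same complex rose in the deletion strain and the wild type. AIM10, GTF1 and HER2 were not all of the 4 rises in the wild type. GRS2 of the same list read 29.0, 19.2 and 24.9 in wild type ethanol, against 17.2, 18.4 and 14.2 in wild type glucose.

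All 3 mitochondrial elongation factor genes rose in each strain. TUF1, whose product brings charged tRNA to the mitochondrial ribosome, had log2 changes of 0.45 in the overexpression strain, 0.98 in the deletion strain and 0.87 in the wild type. MEF1 had log2 changes of 0.46 in the overexpression strain, 1.46 in the deletion strain and 0.92 in the wild type and MEF2 of 0.74 in the overexpression strain, 1.58 in the deletion strain and 1.15 in the wild type. Of 4 tested cytosolic elongation factor genes (8 listed), 1 fell in the overexpression strain, 1 in the deletion strain and 3 in wild type. Of these 4 genes 0 rose in any strain. The 1 fall in the overexpression strain and in the deletion strain was near the share of all genes, 22.9% and 21.2%. TEF4 codes for a subunit of the exchange factor eEF1B. It had log2 changes of −1.17 in the overexpression strain, −0.86 in the deletion strain and −0.94 in the wild type. CAM1 of the same list read 230.5, 195 and 195 in wild type ethanol, against 150, 179 and 204 in wild type glucose.

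Of 19 genes of tRNA maturation, 7 fell in the overexpression strain, 5 in the deletion strain and 7 in the wild type, and 2, 3 and 3 rose. The 5 falls in the deletion strain were near the share of all genes, and the rises were below it in each strain. RPM2, for the protein of mitochondrial RNase P, had the largest rise, by 2.15 ± 0.19 (adjusted p = 6.03e-08) in the overexpression strain, 2.51 ± 0.19 (adjusted p = 5.40e-09) in the deletion strain and 2.59 ± 0.19 (adjusted p = 3.52e-09) in the wild type. PUS1, a tRNA pseudouridine synthase, had log2 changes of −1.07 in the overexpression strain, −1.22 in the deletion strain and −1.35 in the wild type, and TRM1, a tRNA methyltransferase, of −0.76 in the overexpression strain, −0.94 in the deletion strain and −1.08 in the wild type. TRM5, for another tRNA methyltransferase, had log2 changes of −0.30 in the overexpression strain, −1.12 in the deletion strain and −0.96 in the wild type, and did not pass in the overexpression strain. Of 10 genes of the control by Gcn2, the kinase that senses uncharged tRNA, 6 fell in the overexpression strain, 3 in the deletion strain and 6 in the wild type. The 3 falls in the deletion strain were not far from the share of all genes, 21.2%. GCN3, an eIF2B subunit gene, had log2 changes of −1.05 in the overexpression strain, −1.21 in the deletion strain and −1.02 in the wild type. The 1 gene that rose in each strain was GCN4, the transcription factor made when uncharged tRNA accumulates, by 0.88 in the overexpression strain, 0.98 in the deletion strain and 0.69 in the wild type, and its control lies mostly in translation, which arrays do not measure. 0 genes of these lists passed in a comparison of a FAR1 strain with the wild type.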

How the data were processed

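Per the labels' protocols, total RNA of 18 cultures was labelled with biotin and hybridized to Affymetrix yeast S98 arrays. The deposited table holds the authors' linear probe set intensity, made with GCOS per the submitters' processing notes; no source used here gives its version, signal algorithm or scaling. Of 9335 probe sets, 60 are controls, 6504 match 1 gene, 328 several and 2443 none in the probe table. Gene names come from that table, and coordinates are left out because no genome build is named.

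Intensity plus 0.4, on the log2 scale (the 10th percentile of all values), was quantile normalized without the controls; the probe set with the highest mean stood for a gene. Genes above the 20th percentile of their array in at least 3 arrays were tested. limma 3.58.1 (R 4.3.3) fitted 6 group means to 18 arrays with an intensity trend, 9 comparisons, and 12 residual and 5.60 prior degrees of freedom; it was tested on simulated data. Adding 0.4 understates changes of dim genes. Spread between the 3 cultures, and their number, limit the precision.

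The genes, lists and alternatives were chosen with earlier results of these data known. Values of every array are given for the 3 called genes with the largest change per class and comparison, genes called between strains, the amino acid pairs with the largest and the smallest wild type difference, and the dual genes. Promoter motifs and protein identity, which were planned, were not analysed here. Replicate numbers were not taken as pairs: 4 of 21 same-number correlations were above 0.1. Alternatives covered scaling, pseudocount, filters, probe set choice, the fit, the replicate block and arrays left out.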

Additional observations from a re-analysis of the deposited data

How the results depend on the processing

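All 19 cytosolic or dual genes kept the direction of their change between ethanol and glucose under every alternative in each strain, except on the deposited scale in the wild type, and the mitochondrial minus cytosolic difference stayed above 0 in 12 of 12 pairs (10 of 10 tested with the filter at the array median). On the deposited scale the wild type showed 12 mitochondrial rises, 0 mitochondrial falls and 2 cytosolic or dual falls, while 42.8% of all genes rose and 3.14% fell; the deletion strain showed 6 cytosolic or dual falls (6.78% of all genes fell); the overexpression strain showed 0 mitochondrial and 10 cytosolic or dual falls (6.08% of all genes fell). There the wild type changes reversed for MSW1 (0.039, adjusted p = 0.941) and DPS1 (0.14, adjusted p = 0.640). Overexpression minus wild type in glucose gave 2 mitochondrial and 1 cytosolic or dual rise on that scale, where 15.8% of all genes rose, and 1 cytosolic or dual rise with medians centred, where 7.7% did. The wild type fall of MSW1 was lost (0 falls) with no filter, with the filter at the array median, in a fit of only the compared groups and without the ethanol pair. The overexpression fall of MSR1 was lost (0) without the intensity trend, in a fit of only the compared groups, without the ethanol pair and without the arrays of low actin 5′ signal. The MSK1 rise in overexpression glucose was lost (0) in a fit of only the compared groups, with the replicate block and without the low actin arrays, which also left 0 mitochondrial rises in ethanol in the overexpression strain. Without the ethanol pair the deletion strain had 5 mitochondrial rises. The cause was not tested. With the replicate number as a block, 7 mitochondrial genes rose in the deletion strain and 6 in the wild type, without MSD1 (adjusted p = 0.0566) and SLM5 (0.0540), and MSK1 had an adjusted p of 0.0507 in overexpression glucose. Leaving out each array in turn gave 1 to 2 mitochondrial rises in ethanol in the overexpression strain (1 without any of its 6 arrays), 5 to 9 in the deletion strain (5 without deletion ethanol array 3) and 5 to 7 in the wild type. It gave 0 to 1 mitochondrial falls in the overexpression strain (lost in 14 of 18 fits) and 0 to 1 in the wild type (lost in 11). Cytosolic or dual falls ranged over 16 to 19, 13 to 16 and 15 to 18 in the overexpression strain, the deletion strain and the wild type. In the fit of all arrays 17.3%, 21.7% and 22.4% of all genes rose and 22.9%, 21.2% and 21% fell in these strains. Shares of all genes with the replicate block or with 1 array left out are not given here. Overexpression minus wild type in glucose gave 0 to 1 mitochondrial rises (lost without wild type glucose array 1 or 2 or overexpression glucose array 1 or 3) and 0 to 1 cytosolic or dual rises (FRS1, without overexpression glucose array 2). The difference of carbon source effects in the overexpression strain gave 0 to 1 mitochondrial calls below 0 (MSR1, without overexpression glucose array 2). The pseudocount and the mean of probe sets changed 0 calls of these genes. Of the dim genes MSW1 and MSF1 could not be tested with the filter at the array median.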
